A study of Mus musculus with 4 samples.

Results

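Deep-layer projection neurons are among the first glutamatergic neurons of the neocortex to be born, and many of them send axons out of the cortex. Layer 5 subcerebral neurons project to the brainstem and spinal cord, and layer 6 corticothalamic neurons project to the thalamus. A network of transcription factors that partly repress each other, with Fezf2 and Bcl11b on the subcerebral side and Tbr1 and Sox5 on the corticothalamic side, separates these fates. The genes described here are 8 known genes of these neurons, namely Fezf2, Bcl11b, Ldb2 and Crym of the subcerebral neurons and Tbr1, Sox5, Tle4 and Foxp2 of layer 6 and corticothalamic neurons. They were chosen by gene symbol, and all 8 were found among the 26433 genes of the table.

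RNA of the E15 cortex was sequenced from WT mice and from cKI f/+ littermates, to ask which genes differ when human SERPINA3 is expressed in the embryonic brain. In cKI f/+ mice a CAG-loxP-STOP-loxP-3×flag-hSERPINA3 cassette stands at the Rosa26 site, and Nestin-Cre removes the stop in neural progenitors, so that neurons inherit the active cassette from them. The labels name the tissue as cerebral cortex and the study's methods as telencephalic tissue. The labels give the strain as C57BL/6 for both groups, while the founders of the knock-in line were bred with B6D2F2 mice. The table holds 2 cKI f/+ libraries, KI2 and KI3, and 2 WT libraries, WT1 and WT3. The labels do not say whether the samples of a group are separate animals. The study's methods define biological replicates, for its experiments in general, as either repeats in cells or different embryos, without naming these libraries, so p-values measure the spread between these samples.

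The total number of reads counted on genes was 17615212 for WT1, 17423512 for WT3, 17736663 for KI2 and 18119444 for KI3. Values are given as CPM, counts relative to the normalized library size, and 3 counts correspond to between 0.166 and 0.172 CPM, which covers counting error only. Xist, the transcript of the inactive X chromosome, had 13223 counts in KI2, 11882 in KI3 and 5 in each WT library. On chromosome Y, Kdm5d had 0 counts in both cKI f/+ libraries against 951 in WT1 and 918 in WT3, and Ddx3y had 0 in both against 364 and 393. Eif2s3y had 1 count in KI2 and 0 in KI3 against 1149 and 1147, and Uty had 0 in both against 218 and 214. These sex-linked transcripts thus separated the libraries in the same way as genotype, and for every gene below genotype and sex cannot be told apart. The 6 genes of cortical glutamatergic identity (Emx1, Neurod2, Neurod6, Tbr1, Slc17a7 and Slc17a6) were above 3 counts in every library, with a summed level between 2594 and 2820 CPM.

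All 8 deep-layer genes were tested, the lowest count being 207, for Crym in WT1. By edgeR's quasi-likelihood test, 0 of the 8 were called between cKI f/+ and WT cortices. At the same adjusted p under 0.05, 0.120% of the 15786 tested genes were called. DESeq2 and edgeR's likelihood ratio test also called 0 of the 8, where they called 0.0908% of 26433 and 0.342% of 15786 genes. At an unadjusted p under 0.05 there were 2 members, Foxp2 and Ldb2, both with lower values in cKI f/+ mice, where 4.60% of all tested genes passed that threshold. With DESeq2 the same threshold took 1 member, Ldb2, and 1.26% of the 26433 genes it tested, and with the likelihood ratio test 3 members (Crym, Foxp2 and Ldb2) and 4.62% of the genes. Which members passed it also depended on single libraries. It took Ldb2 and Sox5 without KI2 (5.79% of all tested genes), Crym and Foxp2 without KI3 (3.42%), Ldb2 alone without WT1 (5.97%), and 5 members, Bcl11b, Crym, Foxp2, Sox5 and Tbr1, without WT3 (7.92%). Foxp2 thus missed the threshold without KI2 and without WT1, and Ldb2 missed it without KI3 and without WT3. In bulk tissue, fewer cells of a type and less RNA per cell cannot be told apart.

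Fezf2 is a zinc finger transcription factor that directs neurons to the subcerebral fate. The Fezf2 gene (ENSMUSG00000021743) spans bases 12342094 to 12348189 of chromosome 14, minus strand, in the build GRCm38. Fezf2 stood at 306 CPM in WT1, at 287 CPM in WT3, at 324 CPM in KI2 and at 298 CPM in KI3. KI2 was the highest library and WT3 the lowest, but WT1 lay above KI3, so the groups overlapped. For Fezf2, the WT libraries averaged 296 ± 13.1 CPM (SD, n = 2), compared with 311 ± 18.1 CPM (SD, n = 2) for the cKI f/+ libraries. The Fezf2 log2 difference, cKI f/+ minus WT, was 0.07 (standard error 0.08, 95% interval -0.11 to 0.25, adjusted p = 0.988), the narrowest interval among the 8 genes. It was 0.00 without KI2 and 0.12 without KI3.

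Bcl11b, also known as Ctip2, acts downstream of Fezf2 in the outgrowth of corticospinal axons. The Bcl11b gene (ENSMUSG00000048251) spans bases 107910403 to 108003602 of chromosome 12, minus strand. Bcl11b stood at 474 CPM in WT1, at 379 CPM in WT3, at 403 CPM in KI2 and at 377 CPM in KI3. WT1 alone was high, and WT3 lay between the 2 cKI f/+ libraries. For Bcl11b, the WT libraries averaged 427 ± 67.4 CPM (SD, n = 2), compared with 390.1 ± 17.9 CPM (SD, n = 2) for the cKI f/+ libraries. The Bcl11b log2 difference was -0.13 (standard error 0.11, 95% interval -0.37 to 0.11, adjusted p = 0.974). Without WT1 its sign turned, with a log2 difference of 0.04.

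Ldb2 encodes a cofactor that binds LIM domain proteins and is found in developing corticospinal neurons. The Ldb2 gene (ENSMUSG00000039706) spans bases 44472132 to 44799680 of chromosome 5, minus strand. Ldb2 stood at 42.5 CPM in WT1, at 45.4 CPM in WT3, at 38.2 CPM in KI2 and at 33.1 CPM in KI3. Both cKI f/+ libraries lay below both WT libraries. For Ldb2, the WT libraries averaged 43.9 ± 2.07 CPM (SD, n = 2), compared with 35.6 ± 3.60 CPM (SD, n = 2) for the cKI f/+ libraries. The Ldb2 log2 difference was -0.30 (standard error 0.11, 95% interval -0.54 to -0.06), and it did not pass the correction over all tested genes (adjusted p = 0.969). Its sign was negative in each of the 4 fits that left out 1 library, from -0.42 to -0.21.

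Crym encodes mu-crystallin, a protein that binds thyroid hormone and is enriched in corticospinal neurons. The Crym gene (ENSMUSG00000030905) spans bases 120186380 to 120202111 of chromosome 7, minus strand. Crym stood at 11.7 CPM in WT1, at 19.5 CPM in WT3, at 22.5 CPM in KI2 and at 19.9 CPM in KI3. WT1 alone was low, and the other WT library lay just under KI3, so the groups were apart only by a narrow margin. For Crym, the WT libraries averaged 15.6 ± 5.46 CPM (SD, n = 2), compared with 21.2 ± 1.85 CPM (SD, n = 2) for the cKI f/+ libraries. The Crym log2 difference was 0.44 (standard error 0.21, 95% interval -0.02 to 0.91, adjusted p = 0.969), the widest interval among the 8 genes. WT1 decided its size, since the log2 difference was 0.13 without WT1 and 0.86 without WT3. In the fit without WT3, which assumes that the lone WT library varies like the others, Crym was called (adjusted p = 0.0257, against a range up to 0.9995 over its alternatives), as were 0.436% of all tested genes.

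Tbr1 is the T-box transcription factor that gives layer 6 neurons their corticothalamic identity. The Tbr1 gene (ENSMUSG00000035033) spans bases 61802930 to 61814114 of chromosome 2, plus strand. Tbr1 stood at 557 CPM in WT1, at 478 CPM in WT3, at 468 CPM in KI2 and at 442 CPM in KI3. Both cKI f/+ libraries lay below both WT libraries, KI2 by a small margin from WT3. For Tbr1, the WT libraries averaged 518 ± 55.6 CPM (SD, n = 2), compared with 455 ± 18.7 CPM (SD, n = 2) for the cKI f/+ libraries. The Tbr1 log2 difference was -0.19 (standard error 0.09, 95% interval -0.39 to 0.01, adjusted p = 0.969). It was -0.07 without WT1 and -0.29 without WT3.

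Sox5 is a SoxD transcription factor that controls when the successive deep-layer neurons and the subplate are formed, in part by holding back Fezf2. The Sox5 gene (ENSMUSG00000041540) spans bases 143828425 to 144781977 of chromosome 6, minus strand. Sox5 stood at 297 CPM in WT1, at 253 CPM in WT3, at 280.0 CPM in KI2 and at 219 CPM in KI3. KI3 was the lowest library and WT1 the highest, with KI2 above WT3, so the groups overlapped. For Sox5, the WT libraries averaged 275 ± 31.3 CPM (SD, n = 2), compared with 249.6 ± 43.1 CPM (SD, n = 2) for the cKI f/+ libraries. The Sox5 log2 difference was -0.14 (standard error 0.12, 95% interval -0.42 to 0.13, adjusted p = 0.976). Without KI3 it was 0.02, of the other sign. The exons of Sox5 share 1330 bases with the antisense gene Sox5os1, which was not analysed here, and the strand setting of the counting is not given in the sources used here, so reads of the 2 genes cannot be told apart.

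Tle4 is a corepressor of the Groucho family that is found in corticothalamic neurons. The Tle4 gene (ENSMUSG00000024642) spans bases 14448072 to 14598051 of chromosome 19, minus strand. Tle4 stood at 63.5 CPM in WT1, at 56.6 CPM in WT3, at 65.3 CPM in KI2 and at 51.6 CPM in KI3. The cKI f/+ libraries were both the highest and the lowest, with both WT libraries between them. For Tle4, the WT libraries averaged 60.1 ± 4.88 CPM (SD, n = 2), compared with 58.5 ± 9.63 CPM (SD, n = 2) for the cKI f/+ libraries. The Tle4 log2 difference was -0.04 (standard error 0.12, 95% interval -0.31 to 0.23, adjusted p = 0.994), the smallest in size of the 8. Its sign turned in 2 of the 4 fits that left out 1 library.

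Foxp2 is a forkhead transcription factor of layer 6 neurons that is also made by striatal projection neurons. The Foxp2 gene (ENSMUSG00000029563) spans bases 14901349 to 15441977 of chromosome 6, plus strand. Foxp2 stood at 18.4 CPM in WT1, at 16.4 CPM in WT3, at 13.1 CPM in KI2 and at 13.5 CPM in KI3. Both cKI f/+ libraries lay below both WT libraries and close to each other. For Foxp2, the WT libraries averaged 17.4 ± 1.46 CPM (SD, n = 2), compared with 13.3 ± 0.288 CPM (SD, n = 2) for the cKI f/+ libraries. The Foxp2 log2 difference was -0.39 (standard error 0.13, 95% interval -0.68 to -0.09), and like that of Ldb2 it did not pass the correction (adjusted p = 0.969). Its sign was negative in each of the 4 fits that left out 1 library, from -0.47 to -0.30. These are small counts, from 231 in KI2 to 325 in WT1.

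**Figure D1:**
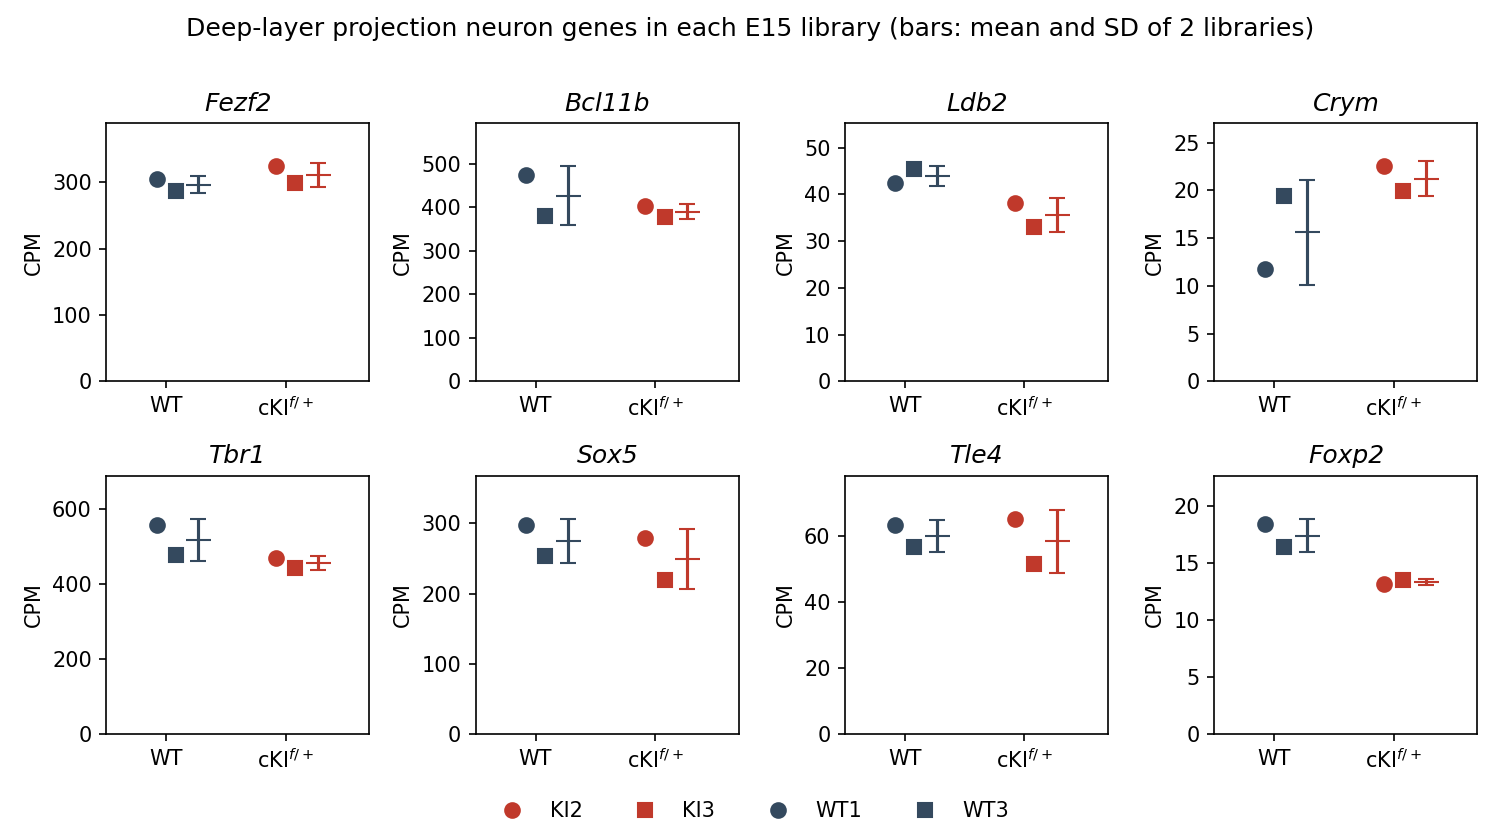
CPM of the 8 deep-layer genes in each library, with 1 panel per gene, WT in dark blue, cKI f/+ in red, and the mean with its SD (n = 2) beside the points. WT1 is the highest library for Tbr1, Bcl11b, Sox5 and Foxp2 and the lowest for Crym.

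Seen together, 6 of the 8 genes had a log2 difference below 0 and 2, Fezf2 and Crym, one above 0. Of the 15786 tested genes, 7704 had one below 0. The median log2 difference of the 8 genes was -0.14, beside 0.00 over all tested genes. The groups did not overlap for 3 members that were lower in cKI f/+ mice (Tbr1, Ldb2 and Foxp2), where 16.9% of all tested genes had that pattern. They did not overlap for 1 member that was higher (Crym), where the share of all tested genes was 17.3%. The 95% interval spanned 0 for 6 members and lay below 0 for 2, Ldb2 and Foxp2. Of the 15786 tested genes, 369 were lower at an unadjusted p under 0.05 by the quasi-likelihood test. An exact permutation of 2 against 2 libraries, two-sided, cannot give a p below 0.333, so the tests lean on variances that edgeR shares among genes.

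Differences between libraries of the same group were set beside those between the groups. The median size of the log2 difference over the 8 genes was 0.15 between KI2 and KI3, 0.20 between WT1 and WT3 and 0.16 between the groups. The first 2 values compare single libraries and the third compares means of 2, which vary less, so these sizes are a description. For 2 of the 8 genes, Foxp2 and Ldb2, the difference between groups was larger in size than both differences within groups, which held for 22.0% of all tested genes. The log2 ratios of Foxp2 were -0.04 for KI2 to KI3 and 0.17 for WT1 to WT3, and those of Ldb2 were 0.21 and -0.10. KI2 was above KI3 for 7 of the 8 genes, Foxp2 being the exception. WT1 was above WT3 for 6 of the 8, Ldb2 and Crym being the exceptions. Sox5 differed most between the cKI f/+ libraries, with a log2 ratio of KI2 to KI3 of 0.35, and Tle4 followed with 0.34. Crym differed most between the WT libraries, with a log2 ratio of WT1 to WT3 of -0.73, and Bcl11b followed with 0.32. Without WT1, the median log2 difference of the 8 genes was 0.01, and without WT3 it was -0.25.

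**Figure D2:**
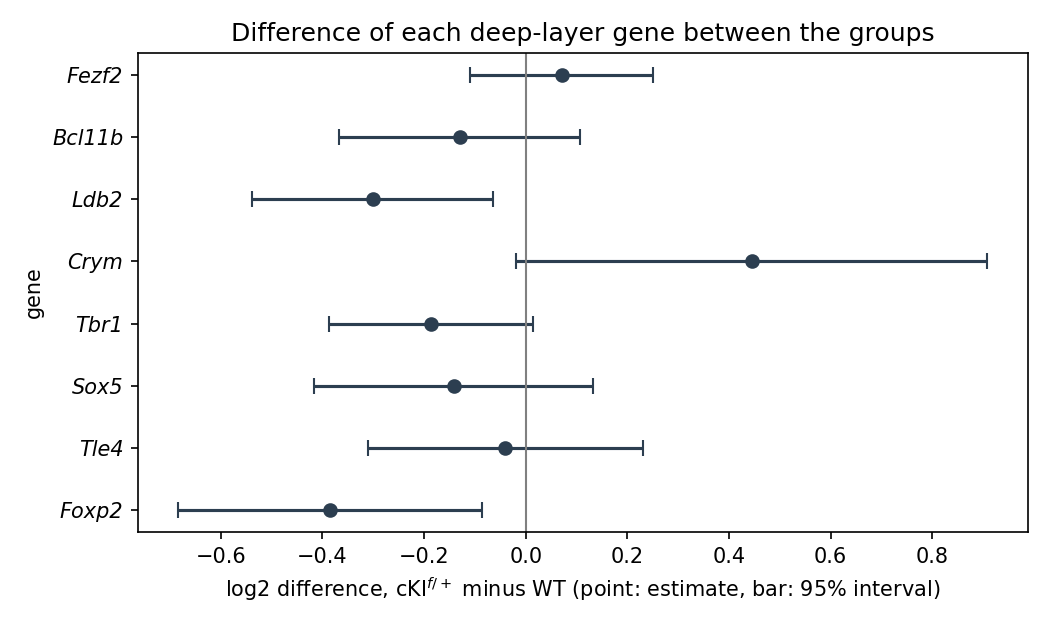
Log2 difference between cKI f/+ and WT mice for each deep-layer gene, with the estimate as a point and its 95% interval as a bar. The intervals of Ldb2 and Foxp2 lie below 0, those of the other 6 genes span 0, and 0 of the 8 genes pass the correction over all tested genes.

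Levels of different genes were compared as CPM per kb of merged exon, averaged over the 4 libraries. Fezf2 had the highest level of the 8, 99.7 ± 5.10 CPM per kb (SD, n = 4), above 97.4% of the tested genes. Tbr1 followed with 88.6 ± 9.04 CPM per kb, and the library ranges of these 2 genes overlapped. In WT1 the order was the other way round, with Tbr1 at 101.5 CPM per kb and Fezf2 at 100.3 CPM per kb. Bcl11b came next with 50.4 ± 5.61 CPM per kb, so that 3 transcription factors led the order. Sox5 stood at 18.3 ± 2.38 CPM per kb, clear of its neighbours on both sides.

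Below them, Ldb2 had 11.9 ± 1.60 CPM per kb and Tle4 10.4 ± 1.11 CPM per kb, and their library ranges overlapped. Crym stood at 5.43 ± 1.37 CPM per kb, near the middle of the tested genes, with 51.6% of them below it. Foxp2 was the lowest at 0.939 ± 0.153 CPM per kb, with 20.3% of the tested genes below it. Of the 7 pairs of neighbours in this order, 5 had library ranges that did not overlap. The median level of the 8 genes was 15.1 CPM per kb, beside 5.06 over all tested genes. The exons of Foxp2 add up to 16.3 kb and those of Sox5 to 14.4 kb, the longest of the 8, and those of Fezf2 to 3.05 kb, the shortest. With the length of the longest transcript in place of merged exons, 7 of the 8 levels were higher, 2 of them by over 1.5 times, and 0 of the 8 genes changed rank. These 2 were Sox5, with 36.2 CPM per kb, and Foxp2, with 2.27 CPM per kb.

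**Figure D3:**
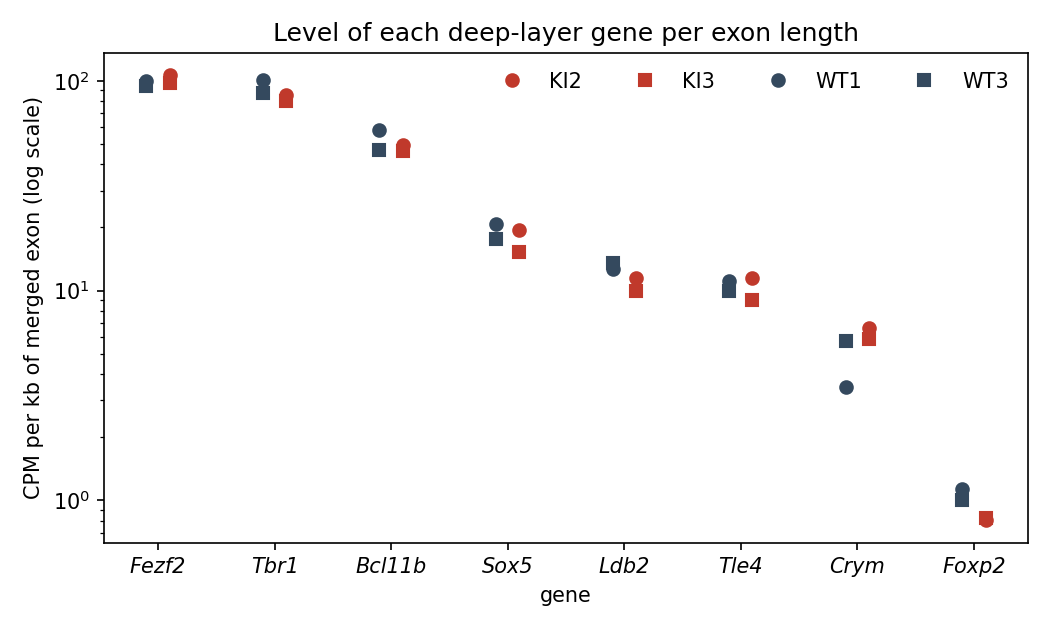
Level of each deep-layer gene in CPM per kb of merged exon on a log axis, in order of the mean over the 4 libraries, with WT in dark blue and cKI f/+ in red. The levels run from 99.7 for Fezf2 to 0.939 for Foxp2, and the ranges of Fezf2 and Tbr1, and of Ldb2 and Tle4, overlap.

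The 8 genes together made up 1770 CPM in WT1, 1535 CPM in WT3, 1614 CPM in KI2 and 1455 CPM in KI3. WT1 was the highest and KI3 the lowest, and KI2 lay above WT3, so the summed levels of the groups overlapped. Tbr1 gave the largest part of these reads in every library, from 29.0% in KI2 to 31.5% in WT1. Fezf2 gave 17.3% in WT1, 18.7% in WT3, 20.1% in KI2 and 20.5% in KI3. Its share of the reads of the 8 genes was thus higher in both cKI f/+ libraries, although its CPM overlapped between the groups. The share of Tbr1 was 31.5% in WT1, 31.2% in WT3, 29.0% in KI2 and 30.4% in KI3, lower in both cKI f/+ libraries. In all, the shares of 5 of the 8 genes separated the groups. Those of Fezf2 and Crym were higher in both cKI f/+ libraries, and those of Tbr1, Ldb2 and Foxp2 lower. By CPM, 4 of the 8 genes were apart. Of all tested genes, 17.3% were apart by CPM and higher in cKI f/+ mice, and 16.9% apart and lower. Shares were not computed over all tested genes, and those of the 8 depend on each other through their common sum. They were computed after the values of the genes had been seen, and they were not tested. Foxp2 gave the smallest part, between 0.812% and 1.07%, except in WT1, where Crym with 0.663% was below it.

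The deep-layer genes were set against a fixed list of 14 upper-layer genes, of which Lhx2 gave 25.0% of the mean summed level. The part of upper-layer neurons and of other cells in the values of this list was not tested, so the ratio compares 2 gene lists. The summed CPM of the 8 deep-layer genes was 0.642 times that of the upper-layer genes in WT1, 0.586 times in WT3, 0.612 times in KI2 and 0.570 times in KI3. KI2 lay between the WT libraries, and the groups overlapped. The mean ratio was 0.614 ± 0.0396 (SD, n = 2) for WT, compared with 0.591 ± 0.0300 (SD, n = 2) for the cKI f/+ libraries. Without Tbr1 and Lhx2, the most abundant gene of each list, the means stood in the other order, 0.570 in cKI f/+ mice and 0.549 in WT mice. Of the 14 upper-layer genes, 0 were called by the quasi-likelihood test and by DESeq2, 1 (Pou3f2) by the likelihood ratio test, and 4 had an unadjusted p under 0.05. Pou3f2 was also called by the quasi-likelihood test without KI2 and without WT3. Their median log2 difference was -0.15, beside -0.14 for the deep-layer genes, and ran from -0.27 to -0.08 with 1 library left out. Pou3f2, a POU factor of upper-layer neurons, had the lowest unadjusted p of the list, with a log2 difference of -0.57 (95% interval -0.88 to -0.25, adjusted p = 0.663). Unc5d, a netrin receptor, came next with a log2 difference of -0.31 (95% interval -0.52 to -0.09, adjusted p = 0.969).

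Other genes of the same neurons were counted in the same way. Of 12 further layer 5 genes, 11 were tested, 0 were called and 1 had an unadjusted p under 0.05, with a median log2 difference of -0.11. The lowest unadjusted p values were those of Etv1, at -0.44 (95% interval -0.75 to -0.13), and Crim1, at -0.31 (95% interval -0.67 to 0.05), and Cdh13 was the most abundant with 127 CPM. Pcp4, a marker of mature layer 5 neurons, was at or under 3 counts in every library. Of 8 further layer 6 genes, 8 were tested, 0 were called and 0 had an unadjusted p under 0.05, with a median log2 difference of 0.01. Ntsr1, at 0.28 (95% interval -0.10 to 0.66), and Rprm, at 0.18 (95% interval -0.09 to 0.44), had the lowest unadjusted p values, and Rprm was the most abundant with 207 CPM.

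Among 22 regulators that act with or upstream of the members, 0 were called, 2 had an unadjusted p under 0.05, and the median log2 difference was -0.05. These 2 were Neurog1, at 0.34 (95% interval 0.06 to 0.61), and Emx2, at 0.18 (95% interval 0.01 to 0.36), and Sox11 was the most abundant with 1920 CPM. Among 13 axon guidance and transmitter genes, 0 were called, 3 had an unadjusted p under 0.05, and the median was -0.08. The lowest were Robo2, a Slit receptor, at -0.36 (95% interval -0.64 to -0.08), and the glutamate transporter Slc17a7 at 0.21 (95% interval 0.03 to 0.38), and Cntn2 was the most abundant with 1618 CPM. Of 13 paralogs of the members, 11 were tested, 0 were called and 0 had an unadjusted p under 0.05, with a median of 0.01. Sox13 was at 0.21 (95% interval -0.01 to 0.43) and Foxp1 at -0.16 (95% interval -0.36 to 0.05), Ldb1 was the most abundant with 601 CPM, and Fezf1, the paralog of Fezf2, was at or under 3 counts in every library. DESeq2 and the likelihood ratio test called 0 genes of the layer 5, layer 6, regulator, axon and paralog lists. Without WT3, the quasi-likelihood test called 1 regulator, Nr2f1, and 2 of the axon guidance and transmitter genes, Dcc and Plxna4, and without each of the other libraries 0 of these lists. With 1 library left out, the median log2 difference ran from -0.29 to -0.03 for the layer 5 genes, from -0.10 to 0.08 for the layer 6 genes, from -0.09 to -0.01 for the regulators, from -0.24 to 0.08 for the axon guidance and transmitter genes and from 0.00 to 0.09 for the paralogs.

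Striatal projection neurons also make Bcl11b and Foxp2, and their markers were counted for that reason. Of 12 striatal markers, 10 were tested, 0 were called and 2 had an unadjusted p under 0.05, with a median log2 difference of -0.39. That median was -0.12 without KI2 and -0.38 without KI3, and 1 gene, Six3, was called without KI3 and without WT1. Their summed level was 29.2 CPM in WT1, 40.2 CPM in WT3, 24.1 CPM in KI2 and 31.2 CPM in KI3, so the groups overlapped, and Zfp503 with 6.45 CPM was the most abundant. The 2 genes were Six3, which had 31 counts in WT1, 112 in WT3, 5 in KI2 and 34 in KI3, and Ebf1, at -0.60 (95% interval -1.16 to -0.03). The part of striatal cells in the values of Foxp2 was not tested. Of 10 markers of ventral progenitors and interneurons, 9 were tested and 0 were called, 2 had an unadjusted p under 0.05, and the summed level was 246 CPM in WT1, 311 CPM in WT3, 241 CPM in KI2 and 252 CPM in KI3. Of these, Dlx2 and Gsx2 were called without KI3, and Dlx2 without WT1. Of 4 thalamic markers, 2 were tested and 0 were called, and Gbx2, a defining marker, was at or under 3 counts in every library.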

How the data were processed

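The table deposited by the authors gives the raw count of reads on every gene in 4 libraries, without normalization. The submitters' processing notes name Bowtie2 2.2.3, TopHat2 2.0.12, HTSeq 0.6.0 and the genome build mm9, whereas 24485 of its 26433 genes have the position of GENCODE M21, which is on GRCm38. The numbers of WT3 and KI2 occur in the sample titles of their group and those of WT1 and KI3 do not, so the columns were matched to genotypes only. The labels speak of triplicates, and each group has 2 libraries here. The table also holds the authors' own comparison (mean normalized count, fold change, p-value, adjusted p-value and a mark of direction and significance), which was not used.

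The counts were analysed with R 4.3.3. edgeR 4.0.16 kept 15786 genes with its default expression filter (a minimum of 10 counts, scaled to library size), applied TMM normalization and then the quasi-likelihood test. P-values were adjusted by Benjamini-Hochberg over all tested genes, with a threshold of 0.05. All adjusted p-values in the text come from this test unless another is named. The 95% interval is the estimate plus or minus the t quantile times the standard error, with the degrees of freedom of the fit. The biological coefficient of variation was 8.72%. Per degree of freedom, the chi-square of the counts was 7.49 for the WT libraries and 5.63 for the cKI f/+ libraries, so the libraries of a group were not copies of each other. Mitochondrial genes took between 1.73% and 2.04% of the counts. Exon lengths come from GENCODE M21. The fit and its intervals were tested on simulated counts. A first simulation fell short of its pass rule. The rule was then limited to genes above 10 CPM and its bar lowered, before the misses were found to lie under 10 CPM. The bar was then set back for genes above 10 CPM. This last rule was met, but it was set after the first outcome was known, so no result here rests on it. The rule asks for calls of a log2 difference of 1 only, which is larger than that of any member. It thus does not show that differences of the members' size, or those of markers under 10 CPM, would be called.

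As alternatives, 1 library at a time was left out, chromosomes X and Y were removed, low counts were kept or a minimum of 10 counts in all libraries was asked for, normalization was by RLE, upper quartile or library size only, and the test was DESeq2 1.42.0 or the likelihood ratio test of edgeR. The members and gene lists were chosen with earlier results of these data known. Beside the members, the text names from each list the genes called, the 2 with the lowest unadjusted p and the most abundant gene. Pcp4, Fezf1, Gbx2 and Kl, named for their counts near 0, and the genes called only with 1 library left out were chosen after their values were seen. Some lists share genes, among them Bcl11a, Ldb1, Pax6 and Eomes. Expression of the human transgene itself was not analysed here. Some results for single genes are not reported here.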

Additional observations from a re-analysis of the deposited data

How the results depend on the processing

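The 8 deep-layer genes were uncalled under all 8 alternatives that kept the 4 libraries, and their log2 differences kept their sign there. With 1 library left out, between 0 and 1 of them were called, the 1 being Crym without WT3, where 0.436% of all tested genes were called. At an unadjusted p under 0.05, an alternative chosen after seeing the data, 2 passed, 1 with DESeq2 and 3 with the likelihood ratio test. From 1 (without WT1) to 5 (without WT3) passed with 1 library left out. Of all tested genes, 4.60% passed, 1.26% with DESeq2 and 4.62% with the likelihood ratio test. That share was 5.97% without WT1 and 7.92% without WT3, so it was also highest where 5 members passed. Among the 32 log2 differences with 1 library left out, 4 turned sign: Sox5 ranged from -0.34 to 0.020, Bcl11b from -0.28 to 0.042 and Tle4, which turned in 2 fits, from -0.23 to 0.11. The cause was not tested.

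The number of genes called was 19, and it was 11 after removal of chromosomes X and Y, 6 where a minimum of 10 counts was asked of all libraries, 54 by the likelihood ratio test and from 46 to 71 with 1 library left out. The removal of chromosomes and the minimum count leave fewer genes to test. Those that leave out a library compare 1 sample with 2, and the lone sample is assumed to vary like the others. Calls in the other gene lists with 1 library left out, also chosen after seeing the data, were found for regulators, axon and transmitter, upper-layer, striatal, ventral, blood, choroid plexus and meningeal genes.

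The deep-layer to upper-layer ratio was 0.656 in cKI f/+ and 0.684 in WT mice with summed counts per kilobase. Without Tbr1 and Lhx2 it was 0.570 in cKI f/+ and 0.549 in WT mice, so the order of the group means turned. With 1 library left out, which was chosen after seeing the data, it ran from 0.570 to 0.612 in cKI f/+ and from 0.586 to 0.642 in WT mice.

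No paired analysis was possible because 2 of the 4 columns carry a number that their group's labels lack, and under either numbering cKI f/+ and WT have fewer than 2 in common. Foxp2 and Crym have the fewest counts of the 8 genes.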

Other observations

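Markers of other tissues were measured in the same libraries, and none of the lists below contains a deep-layer gene. Choroid plexus markers were tested for 4 of 5 genes, with 0 called by edgeR's quasi-likelihood test and by DESeq2, 1 (Ttr) by the likelihood ratio test and 3 with an unadjusted p under 0.05. With 1 library left out, the quasi-likelihood test called Ttr in each of the 4 fits, and also Aqp1 and Clic6 without KI2. Their summed level was 1.30 CPM in WT1, 2.47 CPM in WT3, 9.76 CPM in KI2 and 63.9 CPM in KI3. Ttr, the most abundant, had 0 counts in WT1, 4 counts in WT3, 116 counts in KI2 and 956 counts in KI3, and Aqp1 had 15, 12, 30 and 65 in the same order. Kl was at or under 3 counts in every library. Meningeal markers were tested for 4 of 5 genes, with 0 called by the quasi-likelihood test and by DESeq2, 2 (Col1a1 and Col1a2) by the likelihood ratio test and 4 with an unadjusted p under 0.05. Without KI3 the quasi-likelihood test called Col1a1 and Col1a2, without WT3 Col1a1 and Dcn, and without KI2 or WT1 0 of them. Their summed level was 6.97 CPM in WT1, 9.12 CPM in WT3, 20.1 CPM in KI2 and 17.3 CPM in KI3, with Col3a1 at 5.27 CPM the most abundant. Col1a1 had a log2 difference of 1.91 (95% interval 0.99 to 2.83, adjusted p = 0.400), and Col1a2 of 1.40 (95% interval 0.66 to 2.14, adjusted p = 0.573). The summed levels of both lists were thus higher in both cKI f/+ libraries than in both WT libraries, and their part in the values of the deep-layer genes was not tested.

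The lists that follow held 0 called genes by all 3 tests on the 4 libraries. With 1 library left out, the quasi-likelihood test called 1 blood marker without KI2 (Hbb-bs), without KI3 (Hba-a2) and without WT1 (Hbb-bt). The 6 blood markers had a median log2 difference of -0.43 (-0.28 without WT3 and -0.59 without KI2), 3 had an unadjusted p under 0.05, and their summed level was 491 CPM in WT1, 522 CPM in WT3, 493 CPM in KI2 and 366 CPM in KI3. The lowest unadjusted p values were those of Alas2, at -0.57, and Hbb-bt, at -0.49, and Hbb-bs was the most abundant with 169 CPM. The 5 Cajal-Retzius markers had a median of 0.23 (from 0.17 without WT1 to 0.41 without KI3) and 1 unadjusted p under 0.05, that of Lhx1 at 0.54, followed by Lhx5 at 0.35. Reln, the most abundant with 302 CPM, stood at 297 CPM in WT1, 259 CPM in WT3, 406 CPM in KI2 and 245 CPM in KI3, so KI2 alone was high. The 3 endothelial markers had a median of 0.01 (from -0.10 without KI3 to 0.16 without WT1), with Cldn5 (23.2 CPM, the most abundant) at -0.07 and Pecam1 at 0.09. The 3 microglial markers had a median of -0.14 and 1 unadjusted p under 0.05, that of Cx3cr1 at -0.60, with C1qa at 0.22 and Csf1r the most abundant at 11.2 CPM.

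Pan-neuronal, cortical progenitor and subplate genes were counted as well. Of 13 pan-neuronal genes, 1 had an unadjusted p under 0.05, and the median was -0.01 (from -0.11 without WT1 to 0.04 without WT3). That gene was Elavl4, at -0.27 (95% interval -0.44 to -0.11, adjusted p = 0.777), with Dcx next at -0.13 and Tubb3 the most abundant at 1899 CPM. Of 12 cortical progenitor genes, 0 had an unadjusted p under 0.05, and the median was 0.03 (from -0.04 without KI3 to 0.02 without WT1), with Hes5 at 0.23, Slc1a3 at -0.12 and Vim the most abundant at 869 CPM. Of 8 subplate genes, 7 were tested and 1 had an unadjusted p under 0.05, and the median was 0.04, with a turn of sign to -0.09 without WT1 and 0.15 without KI3. That gene was Nxph4, at 0.22 (95% interval 0.02 to 0.42, adjusted p = 0.969), the most abundant at 69.0 CPM, followed by Tmem163 at 0.32.

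Among the markers of ventral progenitors and interneurons, Dlx2 had a log2 difference of -0.59 (95% interval -0.95 to -0.23, adjusted p = 0.777) and Dlx1 was the most abundant with 109 CPM. Nkx2-1 had 6 counts in WT1, 3 counts in WT3, 19 counts in KI2 and 17 counts in KI3. Of the thalamic markers, Tcf7l2 was at -0.37 and Lhx9, the most abundant with 28.5 CPM, at 0.25.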
